A study of Mus musculus with 11 samples.

Results

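The genes described here encode 9 ion channel subunits that couple glucose metabolism to insulin release in the islet: *Kcnj11*, *Abcc8*, *Kcnma1*, *Kcnk16*, *Cacna1c*, *Cacna1d*, *Cacna1a*, *Trpm5* and *Nalcn*. They were chosen by name, for their place in stimulus-secretion coupling and not for any measured value, though earlier results of these data were known. Each matched 1 of the 19329 gene IDs with a row in the expression table. RNA of whole pancreatic islets from untreated, chow-fed male mice aged 14 weeks was sequenced in bulk. Wild-type mice gave 6 libraries. Mice with the P33T point mutation of PDX1 on both alleles gave 5, and the mutation was introduced with CRISPR-Cas9 and is carried in the germ line (these libraries are called P33T below). The islets were cultured after isolation, and a library may be a pool of several mice, so n and SD refer to libraries. Values are FPKM, reads divided by the length of the gene and by the reads counted in the library, which can be compared between genes. Library depth ranged from 19311937 to 37094286 reads counted in wild-type and from 23731684 to 36865206 in P33T.

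In the beta cell, closure of KATP channels by ATP depolarises the membrane, voltage-gated calcium channels open, and calcium entry drives granule release. Other potassium channels repolarise the cell or restrain its electrical activity, while depolarising cation channels of the TRP family and the sodium leak channel bring the membrane towards threshold. PDX1 is a homeodomain transcription factor of the beta cell. Whole islets also hold alpha, delta, PP, endothelial, mural and immune cells, and in bulk RNA fewer cells of a type cannot be told apart from less RNA per cell.

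The tissue label was borne out by the islet hormones. In P33T libraries the mean level was 152889.6 FPKM for *Ins2*, 83478 FPKM for *Ins1*, 10618 FPKM for *Gcg* and 5720.1 FPKM for *Sst*, and all 10 beta cell markers listed were above 10 FPKM. *Pdx1* itself stood at 79.0 ± 0.881 FPKM (SD, n = 5) in P33T. The 7 acinar markers with a row summed to between 8.60 and 18.8 FPKM in 4 P33T libraries and to 107.5 FPKM in P33T replicate 2, where *Ctrb1* was the most abundant of them on average. That library returns below, because 6 of the 9 channel genes were lowest in it.

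P33T values were read from the row of each gene, whereas nearly all wild-type values that could be checked stood on rows of other genes and had to be put back before any comparison. *Cacna1c* was put back by the reads that a list from the study gives for it, and *Abcc8*, *Kcnma1*, *Cacna1a*, *Trpm5* and *Nalcn* by their length, recovered from the steps of the FPKM, together with their level, a rule that cannot find a gene changed by more than 4-fold. *Kcnj11* shares its length of 3677 bases with 2 other genes, and its wild-type row was taken by the order of the 3 levels, a rule added after values were seen. *Kcnk16* and *Cacna1d* have no identified wild-type row and are described in P33T islets only. Genes that differ little between the genotypes are scarce among the genes put back. Of 2392 P33T genes with 1000 reads or more and a length of their own, 517 (21.6%) found no wild-type row within 16-fold, against 46 of 2282 wild-type rows that found no P33T gene, and 3 of the 4725 genes compared lay within 0.03 of a log2 fold change of 0. The shares given below for all genes in the fit are therefore shares of a set depleted of unchanged genes, and a direction that holds when a library is left out says little. The recovered length equalled the exonic bases of the gene in GENCODE vM21 for 6 of the 9 genes.

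The start regions of several of these genes are shown because PDX1, like other homeodomain proteins, binds sites with a TAAT core. The sequences are from RefSeq on build GRCm38.p6, 250 bases before to 50 bases after a start site, on the minus strand, with each TAAT and its reverse complement ATTA in capitals. *Kcnk16*, at chr14:20269220-20269519, and *Trpm5*, at chr7:143094593-143094892, are the most abundant of the 9 genes with an entry, *Nalcn*, at chr14:123627095-123627394, is the gene with the highest P33T to wild-type ratio, and *Cacna1d* is shown at chr14:30491107-30491406, the first of 2 start sites.
Kcnk16: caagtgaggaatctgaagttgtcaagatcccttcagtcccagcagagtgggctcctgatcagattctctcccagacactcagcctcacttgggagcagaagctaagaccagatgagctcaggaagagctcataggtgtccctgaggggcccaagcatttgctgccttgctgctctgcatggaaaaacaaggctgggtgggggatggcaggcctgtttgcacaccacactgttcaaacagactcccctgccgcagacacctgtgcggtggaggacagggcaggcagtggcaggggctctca
Trpm5: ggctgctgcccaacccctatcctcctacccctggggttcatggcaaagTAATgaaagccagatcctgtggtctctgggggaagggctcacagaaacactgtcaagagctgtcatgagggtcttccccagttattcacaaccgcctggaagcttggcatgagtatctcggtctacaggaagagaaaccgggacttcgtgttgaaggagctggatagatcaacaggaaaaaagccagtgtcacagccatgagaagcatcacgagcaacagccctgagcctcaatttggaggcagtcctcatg
Nalcn: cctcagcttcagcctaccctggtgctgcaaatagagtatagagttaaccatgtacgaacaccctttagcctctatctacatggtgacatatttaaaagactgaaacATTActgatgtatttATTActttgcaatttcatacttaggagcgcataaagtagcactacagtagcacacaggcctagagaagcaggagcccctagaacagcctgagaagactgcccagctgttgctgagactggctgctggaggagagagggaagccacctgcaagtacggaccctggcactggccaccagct
Cacna1d: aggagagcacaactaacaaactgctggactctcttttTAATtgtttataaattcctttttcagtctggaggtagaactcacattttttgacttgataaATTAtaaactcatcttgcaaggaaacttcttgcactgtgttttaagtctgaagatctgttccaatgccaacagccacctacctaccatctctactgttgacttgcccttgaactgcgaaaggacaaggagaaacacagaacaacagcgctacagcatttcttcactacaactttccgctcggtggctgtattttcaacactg

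Of these, *Kcnk16* held no TAAT or ATTA, *Trpm5* held 1, and *Nalcn* and *Cacna1d* each held 2. The other *Cacna1d* start site, not printed here, held 0. Entries were found for 6 of the 9 genes, with 9 windows between them, and 4 of the 9 windows held at least 1 match. Among all 32851 promoter windows of 300 bases, 58.0% did. A match is a description of letters in this window and not a binding site.

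The levels in P33T islets spread over more than 2 orders of magnitude, with *Kcnk16* and the KATP channel genes at the top and *Kcnma1*, *Nalcn* and the calcium channel pores all under 3 FPKM. The order from high to low was *Kcnk16*, *Abcc8*, *Kcnj11*, *Trpm5*, *Cacna1d*, *Kcnma1*, *Cacna1a*, *Nalcn* and *Cacna1c*. Neighbours in this order did not overlap between libraries, except *Kcnma1* with *Cacna1a* and *Cacna1a* with *Nalcn*. The plot of levels by library gives every value.

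**Figure D1:**
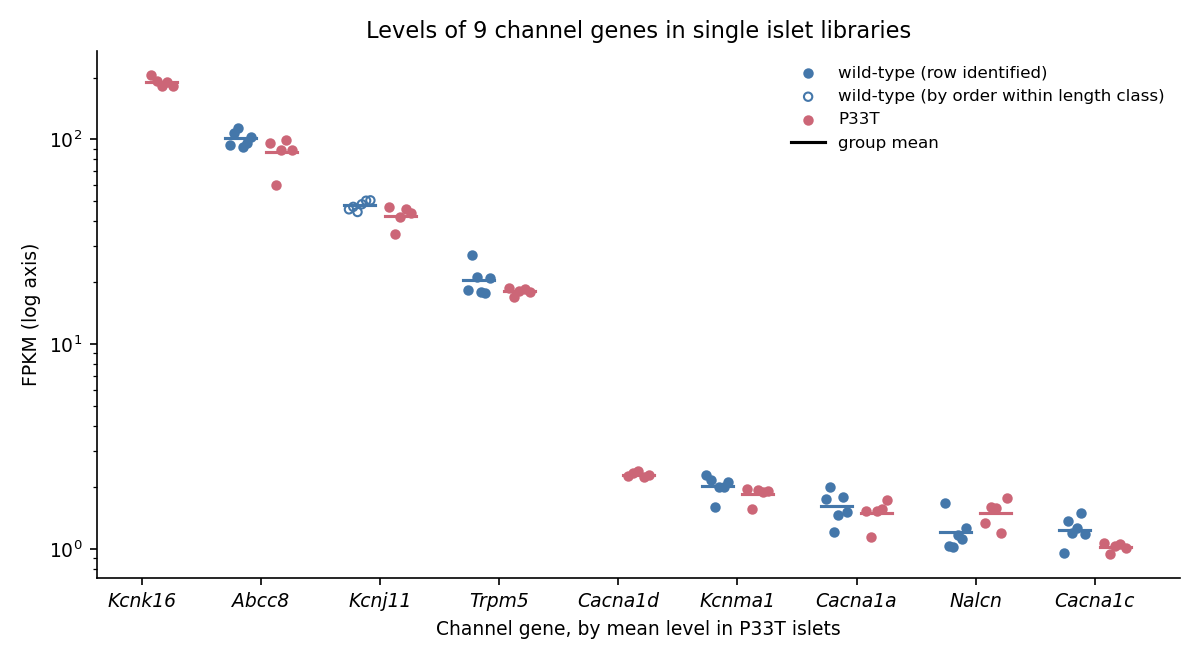
FPKM of the 9 channel genes (vertical log axis) in each library, with wild-type in blue, P33T in red and a bar at each group mean; open blue points mark *Kcnj11*, whose wild-type row was taken by order of level. *Kcnk16* sits near 191 FPKM and *Cacna1c* near 1.02 FPKM in P33T, and in the 7 genes with wild-type points the groups overlap.

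*Kcnk16*, a two-pore-domain potassium channel that is abundant in beta cells and limits their electrical activity, was the highest of the 9. Its P33T libraries read 207.1, 193.7, 183.1, 191.1 and 181.4 FPKM, a mean of 191 ± 10.2 FPKM (SD, n = 5), which between 142 and 195 genes exceeded in a given library. Its variation was small, with a coefficient of variation of 5.36%. Its own wild-type level was not determined: *Eif5a*, a translation factor, has the same length of 2377 bases and stood at 176 ± 8.46 FPKM in P33T, and the only abundant wild-type row of that length, at 181 ± 9.14 FPKM (n = 6), could belong to either gene. The 2 next highest genes of its family were *Kcnk1* at 12.8 ± 1.05 FPKM and *Kcnk12* at 9.62 ± 1.39 FPKM.

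The KATP channel is built from pore subunits encoded by *Kcnj11* and sulfonylurea receptor subunits encoded by *Abcc8*, in equal numbers. The genes lie side by side on chromosome 7 on the same strand, 3758 bases apart in GENCODE vM21 with 0 genes between them. P33T libraries 1 to 5 read 95.7, 59.6, 88.8, 99.2 and 88.8 FPKM for *Abcc8*, a mean of 86.4 ± 15.7 FPKM. For *Kcnj11* they read 46.5, 34.5, 41.8, 45.8 and 43.7 FPKM, a mean of 42.5 ± 4.81 FPKM. Both subunits were lowest in replicate 2, and there the receptor fell short by more than the pore.

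Per length, *Kcnj11* RNA stood at 0.498 ± 0.0472 of *Abcc8* RNA (n = 5). The ratio lay between 0.462 and 0.492 in 4 libraries and at 0.580 in P33T replicate 2. In wild-type it was 0.474 ± 0.0526 (n = 6), with an exact two-sided permutation p of 0.463 against P33T, and the difference between genotypes was smaller than the spread. The vascular counterparts of these subunits were far lower. *Kcnj8* stood at 1.39 ± 0.406 FPKM and *Abcc9* at 0.449 ± 0.192 FPKM in P33T, so that *Kcnj11* was 32.4 ± 9.12 times *Kcnj8* and *Abcc8* was 213 ± 61.7 times *Abcc9* on the FPKM scale.

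In wild-type, the 6 libraries read 94.2, 106.9, 113.9, 92.3, 95.8 and 103.3 FPKM for *Abcc8*, a mean of 101 ± 8.45 FPKM. Of the P33T libraries 2 lay inside this range and 3 lay below all of it. The log2 fold change, P33T over wild-type, was -0.24 with an SE of 0.13 (limma, p = 0.083, adjusted p = 0.765), and the exact permutation p was 0.0563. The 95% interval of the change ran from 30.5% lower to 2.59% higher. Without P33T replicate 2 the log2 fold change was -0.12.

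*Kcnj11* showed a like pattern of values. Its wild-type libraries read 45.5, 46.8, 44.2, 48.2, 50.2 and 50.4 FPKM, a mean of 47.6 ± 2.50 FPKM. Of the P33T libraries 3 lay below this range and the others within it. The log2 fold change was -0.17 with an SE of 0.09 (limma, p = 0.0863, adjusted p = 0.754), with an exact permutation p of 0.0433, and it was -0.10 without P33T replicate 2. These values stand only if the order of levels gave the right row, which it did for 70 of the 70 genes where it could be checked against reads. Those genes are known to have a wild-type row, so the check cannot show an error where a row is missing.

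*Kcnma1* encodes the pore of the large-conductance calcium-activated potassium channel, which shapes beta cell action potentials. P33T libraries read 1.97, 1.56, 1.93, 1.90 and 1.91 FPKM (1.85 ± 0.167), and wild-type libraries read 2.29, 2.17, 1.61, 2.00, 2.00 and 2.11 FPKM (2.03 ± 0.234). In each genotype 1 library stood below the rest, P33T replicate 2 and wild-type replicate 3. The log2 fold change was -0.12 with an SE of 0.11 (limma, adjusted p = 1, exact permutation p = 0.221), and -0.07 without P33T replicate 2. An auxiliary subunit gene of the same channel, *Kcnmb2*, was the most abundant of the calcium-activated list at 23.3 ± 8.38 FPKM in P33T. It ran opposite to *Kcnma1* in P33T replicate 2, where it reached 37.8 FPKM, while the other P33T libraries read 17.3 to 22.3 FPKM.

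Among the calcium channel pores, *Cacna1d* and *Cacna1c* encode L-type channels, which carry much of the calcium current of rodent beta cells, and *Cacna1a* encodes the P/Q-type channel. These were also the 3 highest of the 9 pore genes with a row. *Cacna1d* read 2.26, 2.34, 2.40, 2.25 and 2.29 FPKM in P33T, a mean of 2.31 ± 0.0618 FPKM. Its coefficient of variation of 2.68% was the lowest of the 9 genes. No wild-type row had its recovered length of 5061 bases. That length may be a whole fraction of the one used for counting, and 1 wild-type row had 2 times this length, but it was not assigned to the gene. GENCODE vM21 gives the gene 12621 exonic bases, which is not a whole multiple of the recovered length. The FPKM do not depend on that length.

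*Cacna1c* read 1.07, 0.944, 1.03, 1.06 and 1.01 FPKM in P33T (1.02 ± 0.0489) and 0.954, 1.37, 1.19, 1.27, 1.49 and 1.18 FPKM in wild-type (1.24 ± 0.183). Wild-type replicate 1 lay among the P33T libraries and the other 5 lay above all of them. The log2 fold change was -0.25 with an SE of 0.11 (limma, p = 0.0469, adjusted p = 0.585), and the exact permutation p was 0.0216. It was the only gene of the 7 tested with an unadjusted limma p under 0.05, but after rescaling the libraries by their median ratio its p was 0.0582 and that of *Nalcn* 0.0496, and without wild-type replicate 5 its p was 0.108. Its wild-type row came from the list of reads, which appears to run in order of the evidence for a genotype difference, though that order was not tested here: 48.5% of the genes placed in this way had such a p and were lower in P33T, against 1.74% of those placed by length.

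*Cacna1a* read 1.54, 1.15, 1.52, 1.56 and 1.74 FPKM in P33T (1.501 ± 0.216). In wild-type it read 1.75, 2.01, 1.21, 1.47, 1.80 and 1.52 FPKM (1.63 ± 0.283). The ranges overlapped widely, with a log2 fold change of -0.10 and an SE of 0.14 (limma, adjusted p = 1, exact permutation p = 0.463), which went to -0.02 without P33T replicate 2. Within P33T libraries *Cacna1d* RNA was 2.26 ± 0.151 times *Cacna1c* RNA per length, and above it in 5 of 5 libraries. The ratio of *Cacna1a* to *Cacna1c* was 1.47 ± 0.179 in P33T and 1.33 ± 0.290 in wild-type (exact permutation p = 0.364).

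*Trpm5* encodes a calcium-activated cation channel known from taste cells and beta cells. It read 18.9, 17.0, 18.1, 18.6 and 18.0 FPKM in P33T (18.1 ± 0.726) and 18.4, 27.3, 21.3, 17.9, 17.8 and 20.9 FPKM in wild-type (20.6 ± 3.62). Wild-type replicates 2, 3 and 6 lay above all P33T libraries, replicate 2 the farthest, and the other 3 lay within their range. The log2 fold change was -0.17 with an SE of 0.11 (limma, adjusted p = 1, exact permutation p = 0.143), and -0.08 without wild-type replicate 2. *Trpm5* was the most abundant TRP channel gene in P33T, ahead of the lysosomal channel gene *Mcoln1* at 3.61 ± 0.280 FPKM and of *Trpc1* at 2.26 ± 0.451 FPKM.

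*Nalcn*, the pore of the sodium leak channel, was the only gene of the 7 with a wild-type value whose mean was higher in P33T. P33T libraries read 1.33, 1.61, 1.58, 1.19 and 1.77 FPKM (1.496 ± 0.23), and wild-type libraries read 1.67, 1.04, 1.02, 1.17, 1.12 and 1.26 FPKM (1.21 ± 0.240). Wild-type replicate 1 lay among the higher P33T libraries, and the other 5 overlapped only the lowest of them. The log2 fold change was 0.29 with an SE of 0.14 (limma, p = 0.0622, adjusted p = 0.663, exact permutation p = 0.0649), and 0.38 without wild-type replicate 1 (adjusted p = 0.20). *Unc80*, a large auxiliary subunit of the same channel, had 5.36 ± 0.422 FPKM in P33T and 4.25 ± 0.907 FPKM in wild-type, with a log2 fold change of 0.35 (limma, p = 0.028, adjusted p = 0.512, exact permutation p = 0.0216). It too was high in wild-type replicate 1, at 5.56 FPKM.

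**Figure D2:**
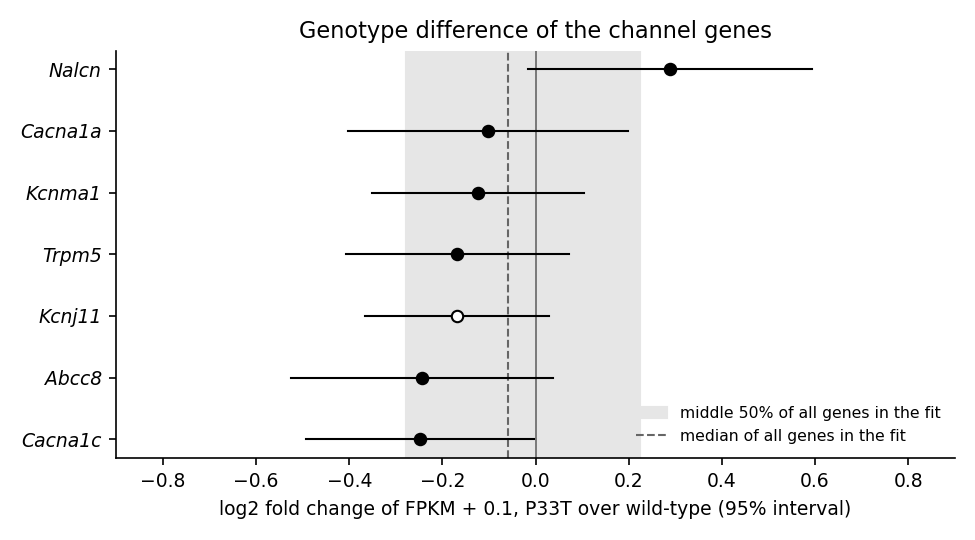
log2 fold change of FPKM + 0.1, P33T over wild-type (horizontal axis), of the 7 channel genes with a wild-type row, with 95% intervals from limma; the open point is *Kcnj11*, the dashed line is the median of all genes in the fit (-0.06) and grey covers their middle range. All points but *Nalcn* lie below 0, and all points but *Nalcn* lie within the grey range.

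Taking the genotype comparison as a whole, 0 of the 6 channel genes in the fit of 4725 genes passed the threshold for a call, a fold change of 1.5 or more with an adjusted p not above 0.05. The background is 4 genes called, or 0.0847% of the fit. At an unadjusted p under 0.05, 1 of the 6 was lower and 0 were higher, against 18.3% and 15.7% of all genes in the fit. Most of that share comes from rows placed by reads; among genes placed by length, as 5 of the 6 were, 1.74% were lower and 3.14% higher, and 0 of these 5 passed. These counts turn on small shifts: rescaling gave 0 lower and 1 higher, and leaving out wild-type replicate 1 gave 1 of each, *Cacna1c* and *Nalcn*. The median log2 fold change of the 6 was -0.15, beside -0.06 over all genes, and 5 of 6 were below 0, beside 52.9%. In 0 of the 6 were the genotypes free of overlap, beside 2.54% of all genes lower and 2.31% higher, or 0.328% and 0.197% of those placed by length. The intervals of the fit do not bound what could have been missed. A match by length had to lie within 4-fold, and the set is depleted of unchanged genes. On the scale of FPKM + 0.1, the lower end for *Abcc8* is 30.5% below wild-type. For *Nalcn* the upper end is 50.8% above it, which understates the change in FPKM of so low a gene.

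The spread among P33T libraries was led by replicate 2, which was lowest for *Kcnj11*, *Abcc8*, *Kcnma1*, *Cacna1c*, *Cacna1a* and *Trpm5*. *Abcc8* stood there at 64.0% of the mean of the other 4 libraries, *Cacna1a* at 72.1%, *Kcnj11* at 77.7% and *Kcnma1* at 80.8%. *Kcnk16* and *Cacna1d* stood at 102% and *Nalcn* at 109%. Rescaling the libraries by their median ratio left the same 6 genes lowest in that library, with *Abcc8* at 63.3%.

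The same library differed from the others along the length of genes. The median log2 ratio of replicate 2 to the other P33T libraries was 0.52 over 971 genes under 1000 bases and fell by class to -0.14 over 1636 genes of 8000 bases or more. *Cacna1c*, at -0.14, was at the median for its length. *Abcc8* at -0.64, *Cacna1a* at -0.47, *Kcnj11* at -0.36 and *Kcnma1* at -0.31 lay below the median of their class, and *Nalcn* at 0.15 lay above it. *Trpm5* at -0.12 and *Kcnk16* at 0.02 lay slightly below the medians of their classes, -0.06 and 0.04, and *Cacna1d*, whose length is uncertain, was at 0.03. Of the 10 beta cell markers 6 were highest in this library, *Ins1*, *Ins2* and *Iapp* among them, and 3 were lowest. The lowest were *Mafa*, a transcription factor of mature beta cells (203 FPKM against 266 to 287), *Nkx6-1*, another beta cell transcription factor (87.2 FPKM against 108 to 121), and *Ucn3*, a peptide of mature beta cells (514 FPKM against 599 to 622). The acinar markers were highest, 7 of 7, and the endothelial markers were lowest, 6 of 6 (their sum 121.9 FPKM against 168 to 222). Also lowest in it were 5 of 7 alpha cell markers, 4 of 5 immune markers and 4 of 6 mural markers. The part of length, carry-over and cell make-up in the low channel values was not tested.

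**Figure D3:**
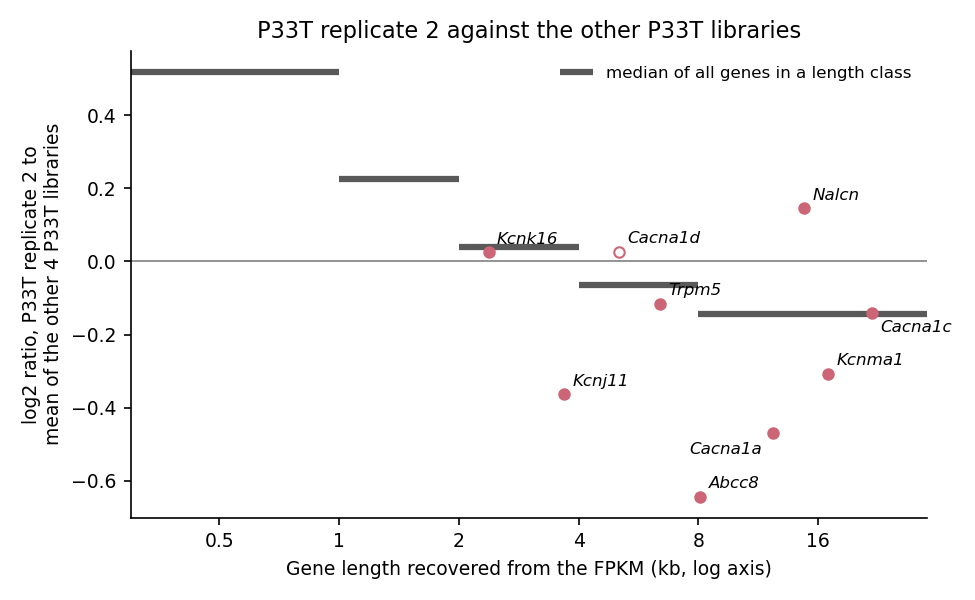
log2 ratio of P33T replicate 2 to the mean of the other 4 P33T libraries (vertical axis) by the gene length recovered from the FPKM (kb, log axis), with grey bars for the median of all genes of at least 1 FPKM in a length class and red points for the channel genes; the open point is *Cacna1d*, whose length is uncertain. The class medians fall from 0.52 to -0.14 as length grows, and *Abcc8* lies lowest at -0.64.

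The 9 genes were set among 182 named channel and pump genes in 10 lists. Of these, 143 had a row, 141 had a value in P33T, 65 reached 1 FPKM and 14 reached 10 FPKM. The 9 genes supplied the most abundant member of 4 lists. In the others the highest P33T levels were those of *Kcnmb2* (above), *Kcnh2* at 21.1 ± 2.89 FPKM, a delayed-rectifier family gene, *Cacnb3* at 26.0 ± 4.42 FPKM, an intracellular subunit of calcium channels, *Unc80* (above), *Atp2a3* at 154 ± 18.4 FPKM, a pump that loads calcium into the endoplasmic reticulum, and *Hcn2* at 19.9 ± 4.01 FPKM, a pacemaker channel.

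**Figure D4:**
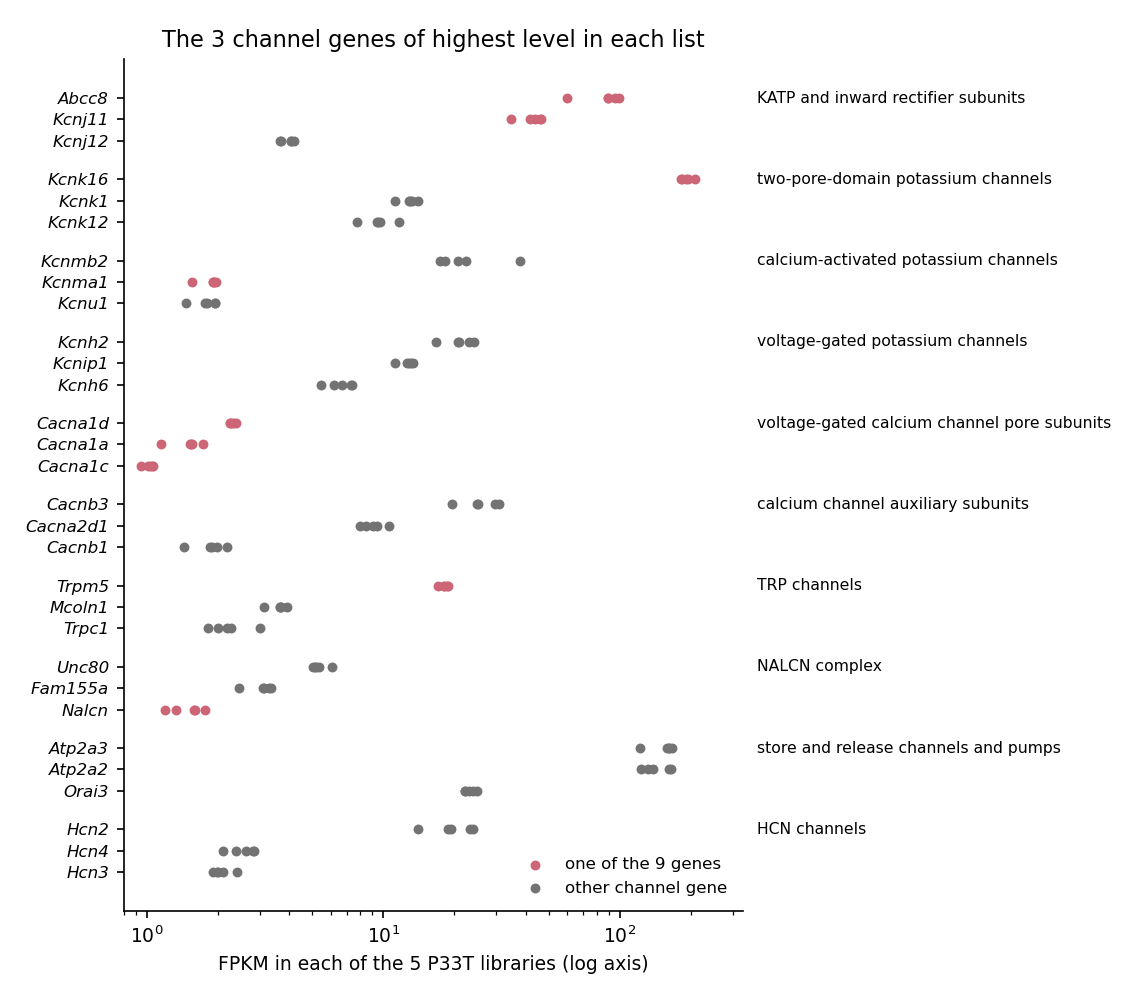
FPKM (horizontal log axis) in each of the 5 P33T libraries for the 3 channel genes of highest mean level in each of the 10 lists, with the 9 genes described here in red and others in grey. *Kcnk16*, *Abcc8*, *Cacna1d* and *Trpm5* head their lists, and *Kcnma1* lies under *Kcnmb2*, *Nalcn* under *Unc80* and *Fam155a*.

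Some auxiliary subunits were more abundant than the pores they serve, and others were less abundant. *Unc79* of the sodium leak complex, at 1.00 ± 0.114 FPKM, stood under *Nalcn*, and *Kcnmb1*, at 0.191 ± 0.0378 FPKM, under *Kcnma1*. Other genes among the 3 highest of their lists are also given here. *Cacnb3* stood at 26.0 FPKM and *Cacna2d1*, an extracellular calcium channel subunit, at 9.09 ± 1.00 FPKM in P33T, while the 3 leading pore genes stood between 1.02 and 2.31 FPKM. *Cacnb1* came next in its list at 1.87 ± 0.274 FPKM. In the sodium leak complex *Fam155a* stood at 3.07 ± 0.359 FPKM, above *Nalcn* in 5 of 5 libraries. *Kcnj12*, an inward rectifier, stood at 3.94 ± 0.241 FPKM and *Kcnu1* at 1.78 ± 0.198 FPKM. *Kcnip1*, which modulates A-type potassium channels, stood at 12.6 ± 0.848 FPKM and *Kcnh6* at 6.61 ± 0.798 FPKM. The second calcium pump, *Atp2a2*, reached 144 ± 18.3 FPKM, and *Orai3*, a store-operated channel, 23.3 ± 1.23 FPKM. *Hcn4* and *Hcn3* stood at 2.55 ± 0.312 and 2.08 ± 0.194 FPKM.

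Between genotypes, 49 of the listed genes were in the fit and 0 were called higher or lower, with a lowest adjusted p of 0.499. At an unadjusted p under 0.05, 12 were lower and 2 were higher, *Unc80* and *Stim1*, a calcium sensor of the endoplasmic reticulum named here after its value was seen (log2 fold change 0.23, limma, adjusted p = 0.499). Over all genes in the fit the shares were 18.3% lower and 15.7% higher. Among the 16 listed genes placed by reads 11 were lower and 1 was higher, beside 48.5% and 38.6% of all genes so placed. Among the 33 placed by length 1 was lower, *Kcnn1*, named after its value was seen, and 1 was higher, beside 1.74% and 3.14%. Without P33T replicate 2 the 12 and 2 became 5 and 5. The median log2 fold change of the 49 was -0.13, against -0.06 over all genes. It was -0.57 over the 16 genes placed by reads, where the median of all genes was -0.32, and -0.07 over the 33 placed by length, where it was 0.04. In 0 of the 49 were the libraries of the genotypes free of overlap, beside 2.54% of all genes lower and 2.31% higher (6.58% and 6.16% by reads, 0.328% and 0.197% by length).

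By list, the genes in the fit lay below 0 in 3 of 4 KATP and inward rectifier genes, 1 of 1 two-pore-domain gene, 3 of 3 calcium-activated genes, 11 of 13 voltage-gated potassium genes, 4 of 6 calcium channel pores, 3 of 4 calcium channel auxiliary subunits, 4 of 8 TRP genes, 0 of 2 genes of the sodium leak complex, 2 of 7 store and release genes and 1 of 1 HCN gene. Over all genes the share below 0 was 52.9%, with 58.7% by reads and 49.7% by length, and 7 of the 13 voltage-gated potassium genes were placed by reads. Markers of some other islet cells also lay below 0: 4 of 4 endothelial markers in the fit (median log2 fold change -0.63), 3 of 3 mural markers (-0.83), 4 of 4 immune markers (-0.58) and 4 of 4 fibroblast markers (-0.58). Hormone cell markers in the fit were mixed. Below 0 were 1 of 5 beta cell markers, 1 of 2 alpha cell markers, and the 1 delta and 1 PP cell marker. At an unadjusted p under 0.05, 1 of these mural markers, 2 of the immune markers and 0 of the endothelial and fibroblast markers were lower. So were 2 of the Schwann and neural markers, and 0 were called. Placed by reads were 3 of 3 mural, 3 of 4 immune and 2 of 2 Schwann and neural markers, and the endothelial and fibroblast markers were placed by length. Of all genes so placed, 48.5% by reads and 1.74% by length were lower at such a p. Their median log2 fold changes were -0.32 and 0.04. *Ngfr*, a marker of Schwann and neural cells named after its values were seen, read 0.772 to 3.66 FPKM in wild-type and 0.293 to 0.695 FPKM in P33T, without overlap (log2 fold change -1.45, limma, adjusted p = 0.457). The paper, which names DESeq2 as its method, reports this gene as significantly lower in P33T. Among all genes placed by reads, as *Ngfr* was, 6.58% were lower in P33T without overlap. The fibroblast markers had a sum of 27.1 FPKM in wild-type replicate 2 and of 1.46 to 5.72 FPKM in the other libraries. The part of these cells in the channel values was not tested.

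**Figure D5:**
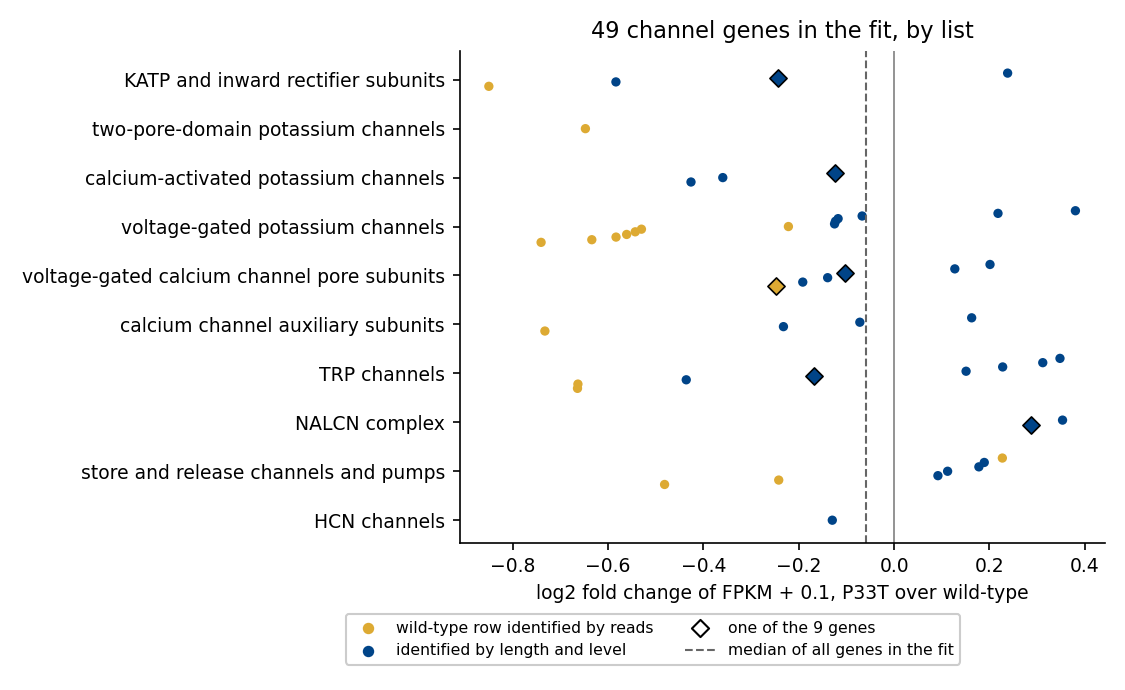
log2 fold change of FPKM + 0.1, P33T over wild-type (horizontal axis), of the 49 channel genes in the fit by list; gold marks genes whose wild-type row came from reads, blue those placed by length and level, diamonds the 6 of the 9 genes in the fit, and the dashed line the median of all genes. The lowest values are gold, and the 6 diamonds lie between -0.25 and 0.29.

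Wild-type replicate 3 stood apart in several cell markers. It was the highest wild-type library for 42.9% of the 49 listed channel genes and the lowest for 32.7%, beside 32.5% and 31.7% of all genes in the fit. Without it 10 of the 49 were lower and 2 higher at an unadjusted p under 0.05. Wild-type replicate 1 was the lowest for 38.8% of the 49 and the highest for 24.5%, beside 31.3% and 30.4% of all genes. Without replicate 1, 14 of the 49 were lower and 5 higher. *Kcnj8*, chosen after its values were seen, read 7.44 FPKM in wild-type replicate 3 and 1.25 to 2.91 FPKM in the other wild-type libraries. The 4 endothelial markers in the fit (*Cdh5* the most abundant) summed to 163 FPKM in this library, to between 31.3 and 69.7 FPKM in the other 5 and to between 24.5 and 57.7 FPKM in P33T, and the 3 mural markers in the fit (*Des* the most abundant) to 7.02 FPKM, between 1.40 and 5.72 FPKM and between 1.08 and 2.41 FPKM in the same order. The delta and PP cell hormones were also highest there, *Sst* at 10589 FPKM, where the other 5 read 4309 to 7479 FPKM, and *Ppy* at 14937 FPKM against 6397 to 10059.9 FPKM, while the 2 alpha cell markers in the fit, led by *Gcg*, summed to 8365 FPKM, within the range of the other wild-type libraries (4707 to 11198). The 4 immune markers in the fit summed to 55.9 FPKM in it and 57.8 FPKM in wild-type replicate 2, against 22.3 to 30.9 FPKM in the other 4. *Kcnj11*, *Kcnma1*, *Cacna1a* and *Nalcn* had their lowest wild-type value in it, and *Abcc8* had its highest. The part of these cells in the channel values was not tested.

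For each channel gene in the fit, the 2 genes most like it were those whose log2 ratio to it varied least over the 11 libraries, among 3537 genes of at least 1 FPKM. For *Abcc8* these were *Rnpepl1* (SD of the log2 ratio 0.0557) and *Helz* (0.0600), and for *Kcnma1* *Arhgef17* (0.0458) and *Atxn2l* (0.0610). *Cacna1c* was closest to *Tatdn2* (0.102) and *Mapk8ip3* (0.103), and *Cacna1a* to *Htt* (0.0992) and *Cntnap2* (0.103). *Trpm5* was closest to *Tubb5* (0.0828) and *Ccdc166* (0.0859), and *Nalcn* to *Man1a* (0.0770) and *Dach1* (0.0830). The median SD over all genes compared ran from 0.290 for *Kcnma1* to 0.358 for *Abcc8*. The 2 closest of 3537 genes have low SDs by the way they were picked. None of these 12 is on the channel lists. The points share library depth and gene length effects, so the likeness is a description.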

How the data were processed

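Bulk RNA of whole islets was measured in 6 wild-type and 5 P33T libraries. Per the labels' processing notes, the tools named by the submitters were fastp 0.23.1, HISAT2 2.0.5, featureCounts 1.5.0-p3 and DESeq2 1.20.0, with build GRCm39. The authors deposited FPKM per gene and library and dropped genes without a value in 80% or more of the libraries of a condition. Whether counting used strand is not stated for these libraries, so overlapping and antisense genes are uncertain. All 11 columns of per-sample values were used. A further 6070 rows carry neither a gene ID nor a value.

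Wild-type FPKM stood on rows of other genes for all but 13 of the 1711 genes whose row could be identified from reads. The remaining rows were matched by gene length, recovered as the smallest whole number that turns all FPKM of a gene into whole reads, and by level. Each genotype had to have 100 reads or more, the group means had to lie within 4-fold, and no rival of equal length could lie within 16-fold, so genes changed by more cannot be found. Of 402 such matches that could be checked against reads, 402 were right. Only genes whose wild-type row is known to be present could be checked. The check therefore cannot show a wrong match for a gene whose row is missing. *Kcnj11* was placed by order within its length class. In all, 4764 genes were put back, and 39 of them, listed at 0 in P33T, were left out. Of the genes placed by length, 2.00% had a p above 0.7, so the genes compared are selected for a genotype difference, and how the deposited rows came to be so was not tested.

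The genotypes were compared without covariates on log2(FPKM + 0.1), using limma 3.58.1 (R 4.3.3) with its trend and robust options. The pseudocount of 0.1 understates the fold changes of low genes. The Benjamini-Hochberg adjustment of p-values ran over the 19329 gene IDs of the table and took genes outside the fit as unchanged. For 7 channel genes, 2 ratios and *Unc80* an exact permutation test, two-sided and unadjusted, was added; it enumerates 462 assignments of the genotype labels, and its smallest p is 0.0043. The labels do not say that libraries are separate animals or pools, so p-values measure the spread between these libraries. Python 3.11.15, numpy 2.4.6, pandas 2.3.3, scipy 1.17.1 and matplotlib 3.10.9 made the tables and plots. The channel genes, lists and markers were chosen with earlier results of these data known. Of the channel lists, the rule named the 3 highest genes in P33T and any gene called or free of overlap (0 were), and for each channel gene the 2 genes most like it. *Kcnj8* and *Abcc9* were named for the subunit ratios, *Stim1*, *Kcnn1* and the marker *Ngfr* after their values were seen. The values of *Kcnj8* in wild-type replicate 3 were also picked out after they were seen. The result of 1 marker list is not reported here.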

Additional observations from a re-analysis of the deposited data

Results flagged for a closer look

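Among 21 groups of 5 or 6 libraries, 16 of a gene in a genotype and 5 of a ratio in P33T, 5 values stood apart from their group by the gap to the nearest other library relative to the whole range, a criterion that chance meets in about 1 group in 20. *Abcc8* in P33T replicate 2 was 59.6 FPKM, against 88.8 to 99.2 FPKM in the other 4 libraries. *Kcnma1* in the same library was 1.56 FPKM, against 1.90 to 1.97 FPKM. The ratio of *Kcnj11* to *Abcc8* there was 0.580, against 0.462 to 0.492, which follows from the low *Abcc8* value and is not a separate observation. *Trpm5* in wild-type replicate 2 was 27.3 FPKM, against 17.8 to 21.3 FPKM in the other 5 libraries. *Nalcn* in wild-type replicate 1 was 1.67 FPKM, against 1.02 to 1.26 FPKM.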

How the results depend on the processing

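Some alternatives leave the fold change of a gene as it was, and a kept direction says little in a set depleted of unchanged genes. The 7 channel genes with a wild-type row kept their direction, and none was called, under every alternative that could be run for them. Their log2 fold changes ranged over the left-out libraries from -0.30 to -0.12 for *Abcc8*, from -0.20 to -0.10 for *Kcnj11*, from -0.19 to -0.07 for *Kcnma1*, from -0.18 to -0.02 for *Cacna1a*, from -0.21 to -0.08 for *Trpm5*, from -0.32 to -0.20 for *Cacna1c* and from 0.23 to 0.38 for *Nalcn*. With a pseudocount of 1 they were -0.15 for *Cacna1c*, -0.07 for *Cacna1a* and 0.18 for *Nalcn*. The number of genes called over the whole fit, 4, was between 3 and 8 when a library was left out, highest without wild-type replicate 1, was 2 at a log2 fold change of at least 1.5, and was 13 with p-values adjusted over the genes in the fit alone, an alternative added after seeing the data, with 0 of the 6 channel genes of the fit among them. The listed channel genes at an unadjusted p under 0.05, 12 lower and 2 higher, numbered 5 to 14 lower and 1 to 5 higher with a library left out, 6 and 1 with the title number of each library as a replicate block, and 5 and 0 with the number in its library name, which differs for 3 P33T libraries. The calls were 1 and 3 under these blocks. By either numbering, the correlations between the deviations of same-numbered libraries over 3182 genes ran from -0.61 to 0.19. Such values cannot settle whether same-numbered libraries were handled together. As ratios of reads not divided by length, *Kcnj11* to *Abcc8* was 0.226, *Cacna1a* to *Cacna1c* 0.825, *Kcnj11* to *Kcnj8* 46.7 and *Cacna1d* to *Cacna1c* 0.524, the last resting on an uncertain length; these differ from the ratios of FPKM because the genes differ in length. For genes near 1 FPKM, such as *Cacna1a*, wild-type libraries held 287 to 673 reads, so counting adds to their spread.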
